A study of Homo sapiens with 18 samples.

Results

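The ATF4 amino acid response genes are 43 genes that the transcription factor ATF4 is known to activate when cells run short of amino acids or when their endoplasmic reticulum (ER) is stressed. They were picked by symbol from the expression table in 4 groups by role: 13 genes of amino acid synthesis, 8 amino acid transporters, 10 genes of tRNA charging, and 12 genes of feedback and signalling. Expression was given in TPM, a length-corrected estimate of each gene's share of the transcripts in a sample. Genes with a mean below 1 TPM were left out, which removed BCAT1, an enzyme of branched-chain amino acid breakdown with a mean of 0.474 TPM. The other 42 members were among 13789 genes tested, of 60483 gene identifiers in the table.

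ATF4 is controlled mainly at translation. The kinases PERK, which senses stress in the ER, and GCN2, which senses uncharged tRNA, phosphorylate the initiation factor eIF2α, which lowers protein synthesis in general while the ATF4 message is translated more. ATF4 then pairs with C/EBP proteins on a composite DNA element and switches on genes that make, import and load amino acids, together with genes that restrain the response or lead towards cell death.

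OVCAR5 is an established human ovarian cancer line, labelled as wild type. The cells were grown for 24 h without added fatty acid, with stearate or with oleate, and each of these either with CAY10566 or with DMSO alone, which gave 6 conditions of 3 samples. Below, a condition with a fatty acid is written as stearate+DMSO and so on, and those without are written DMSO and CAY10566. Stearate is a saturated fatty acid and oleate is the monounsaturated acid of the same chain length, both given at 50 µM; CAY10566, given at 1 µM, inhibits stearoyl-CoA desaturase (SCD1), the enzyme that turns stearate into oleate, and DMSO is the vehicle. All 18 cultures, controls included, had medium with albumin stripped of fatty acids. Control, stearate and oleate below each mean 6 samples, with and without CAY10566 pooled. The label calls the cells high grade serous: the epithelial genes EPCAM (311 to 353 TPM) and KRT8 (770 to 1004 TPM) and the Müllerian factor PAX8 (7.64 to 16.9 TPM) were present, whereas WT1 (0 to 0.52 TPM) and MUC16 (0.25 to 1.04 TPM) were at or near 0, as was the leukocyte gene PTPRC (0 to 0.06 TPM).

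Before the values, the promoters of a few members show the letters that ATF4 and its C/EBP partners are known to read. RefSeq windows on GRCh38.p14, from 250 bases before to 50 bases after each annotated start, were matched by symbol to 35 of the 43 members and searched on both strands for TGATGNAA, the core of the C/EBP-ATF response element. The motif was present in a window of 15 of these 35 genes (42.9%), against 1217 of 27305 genes overall (4.46%). By window, it was in 15 of 57 (26.3%) against 1270 of 35116 (3.62%). Among the 34 of these genes that were tested it was found in 14, namely 6 of 10 genes of tRNA charging, 4 of 7 transporters, 3 of 10 genes of feedback and signalling and 1 of 7 genes of synthesis; the window of BCAT1, left out here for its low level, held it as well. The match is a description of letters and not of binding. Of the tested members with a window, it was present in 5 of the 11 that rose with stearate and in 9 of the 22 that did not pass that test. The stretches below are shown because these genes return in the results. The motif is in capitals, all are read 5′ to 3′ on the gene's own strand, and where the opposite strand holds the motif the capitals show its reverse complement.
ASNS, chr7:97872409-97872536, minus strand, motif 68 to 61 bases before the start: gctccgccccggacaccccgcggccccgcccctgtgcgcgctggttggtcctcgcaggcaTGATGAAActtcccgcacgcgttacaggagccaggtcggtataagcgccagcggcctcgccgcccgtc
CHAC1, chr15:40953221-40953470, plus strand, motif 209 to 202 bases before the start: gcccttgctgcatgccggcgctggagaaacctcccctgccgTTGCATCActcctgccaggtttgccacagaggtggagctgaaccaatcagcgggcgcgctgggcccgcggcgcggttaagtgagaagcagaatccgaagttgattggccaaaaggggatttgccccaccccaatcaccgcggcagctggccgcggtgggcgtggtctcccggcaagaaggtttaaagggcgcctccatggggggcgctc
AARS1, chr16:70289626-70289753, minus strand, motif 187 to 180 bases before the start: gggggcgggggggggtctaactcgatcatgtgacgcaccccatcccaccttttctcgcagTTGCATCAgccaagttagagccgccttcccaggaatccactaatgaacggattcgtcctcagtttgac
SLC1A4, chr2:64989381-64989410, plus strand, motif across the start: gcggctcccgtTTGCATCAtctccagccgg
SLC3A2, chr11:62881725-62881748, plus strand, motif 38 to 45 bases into the transcript: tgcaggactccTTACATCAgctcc
NARS1, chr18:57621804-57621833, minus strand, motif 15 to 22 bases into the transcript: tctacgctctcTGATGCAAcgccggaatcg

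These genes were expressed at very different levels. Averaged over the 18 samples, the members ran from 2.20 TPM for ALDH1L2, a mitochondrial folate enzyme, to 721 TPM for SLC3A2, the shared heavy chain of several amino acid transporters. MTHFD2, a mitochondrial folate enzyme (705 TPM), and DDIT4, an inhibitor of mTORC1 (683 TPM), were close behind, and SLC1A5, a glutamine transporter, SLC7A5, the light chain that pairs with SLC3A2 to import large neutral amino acids, ASNS, which makes asparagine, and GARS1, which charges tRNA with glycine, lay between 341 and 508 TPM. In sum the members took between 0.721% and 0.811% of all TPM in a sample. The regulator itself, ATF4 (chromosome 22, 39519695 to 39522683, plus strand in GENCODE 44 on GRCh38), averaged 550 TPM.

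The members described in most detail lie across the genome. By GENCODE 44 on GRCh38, SESN2 spans chr1:28259518-28282491, PHGDH chr1:119648411-119744218, VLDLR chr9:2621182-2660056, SLC38A2 chr12:46358188-46372773, NUPR1 chr16:28532708-28539008 and STC2 chr5:173314723-173328447. The TPM of a gene sums over its annotated transcripts, so no single exon or isoform can be assigned a value.

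Tests used limma on log2(TPM + 1), with Benjamini-Hochberg adjustment over all 13789 genes. A gene is said to rise or fall where its false discovery rate (FDR) was under 0.05, and is called where the higher mean was also over 25% above the lower on this scale. Fold changes on this scale are slightly understated for low genes. A property of the whole table bears on every direction below. The typical gene was higher with either fatty acid, by a median of 0.060 (log2) with stearate and 0.087 with oleate over all tested genes, and dividing each sample by a median-of-ratios size factor moved these medians to 0.0066 and -0.0010. Where a member passed on one of the 2 scales and not on the other, this is said beside its value. In addition, CAY10566 replicate 3, a control sample, stood apart: its size factor was 1.022 against 0.942 to 0.968 in the other controls, and the members were a median 0.096 above the mean of the controls there. The counts of members in each fatty acid comparison are given with and without it, and members whose test changed without it are named.

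**Figure D1:**
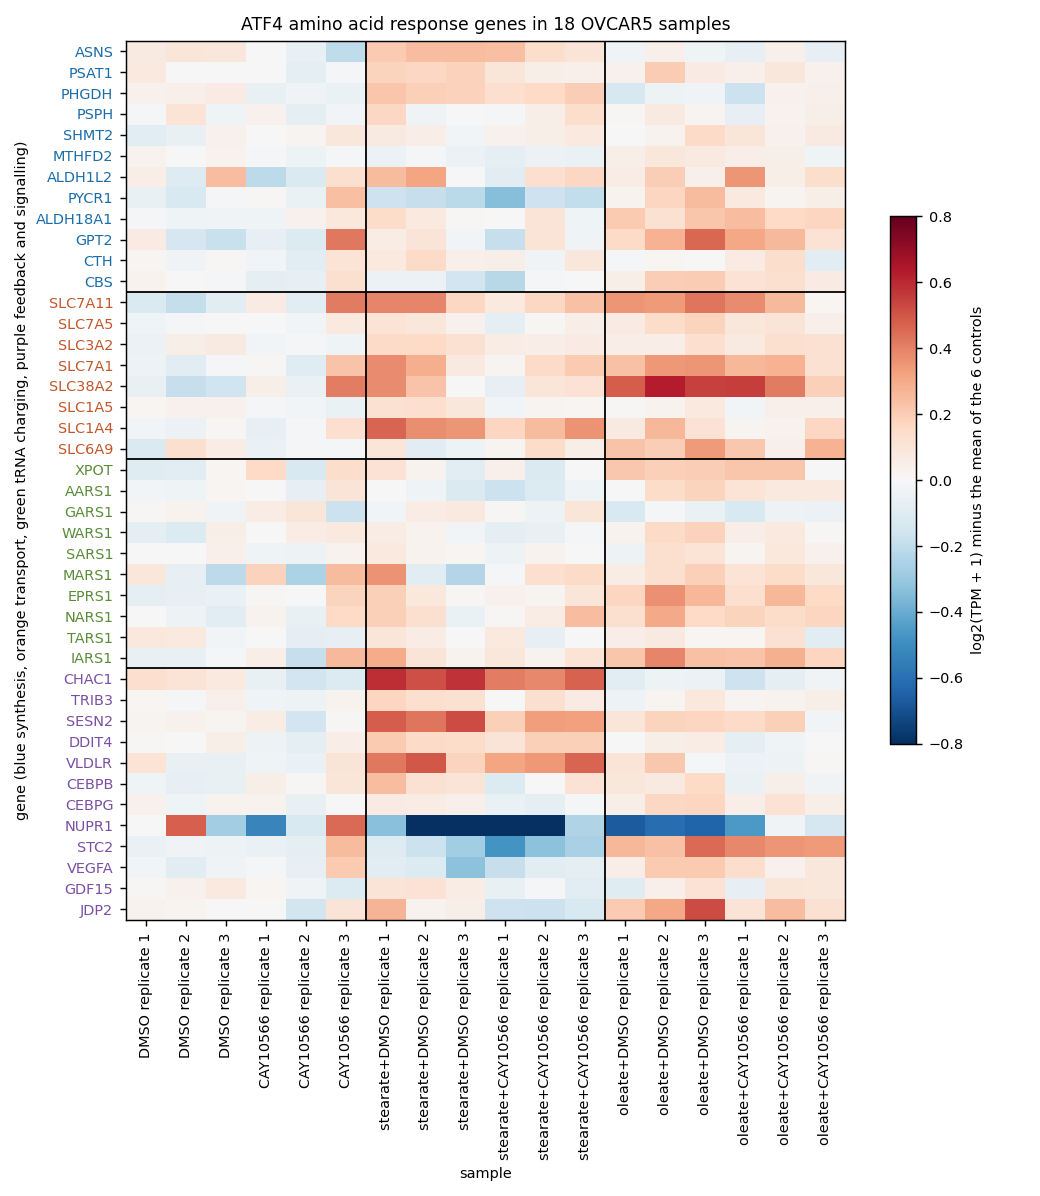
Each row is a member and each column a sample; colour is log2(TPM + 1) minus the mean of the 6 controls, with the scale stopping at 0.8 in either direction. CHAC1, SESN2 and SLC1A4 are red in the 6 stearate samples, and SLC38A2 and STC2 are red in the oleate samples. NUPR1 is blue in the stearate samples and also in the oleate+DMSO samples.

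The first question was whether stearate, which the study examined as a cause of ER stress, moved this set of genes. The changes were split within the set. In stearate against control, 11 of the 42 members rose (26.2%) and 3 fell (7.14%), where 13.5% of all tested genes rose and 5.97% fell. Past the 25% threshold, 4 members were called higher and 1 lower, against 3.46% and 1.89% of all genes. The median member changed by 0.053 (log2) as deposited, close to the all-gene median of 0.060, and by -0.0056 after rescaling. After rescaling 7 members passed in each direction, where 7.92% of all genes rose and 10.2% fell, and without CAY10566 replicate 3, the counts were 14 higher and 3 lower, where 20.3% of all genes rose and 6.53% fell. The 3 members added without that sample were SLC7A11, NARS1 and IARS1.

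Feedback and signalling genes held the largest changes: 5 of 12 rose and 2 fell. CHAC1 encodes a glutathione-degrading enzyme linked to cell death under ER stress. Its level was 25.7, 28.9 and 31.6 TPM (lowest, median and highest) in the controls, 37.8, 40.8 and 43.7 TPM with stearate, and 25.5, 27.4 and 28.1 TPM with oleate. Every stearate sample was above every control and every oleate sample. The rise over control was 0.49 ± 0.05 (log2, SE, n = 6 against 6; limma adjusted p = 3.23e-06), or 40.6% on the TPM + 1 scale, and 0.43 after rescaling.

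SESN2, sestrin 2, a sensor that holds back mTORC1 when leucine is scarce, was at 19.9, 22.6 and 23.2 TPM (lowest, median and highest) in the controls and 25.5, 29.3 and 32.3 TPM with stearate. The groups did not overlap, and the rise was 0.38 ± 0.05 (log2, SE; limma adjusted p = 9.74e-05), with 0.33 after rescaling. VLDLR, a lipoprotein receptor, was at 12.1, 12.2 and 13.7 TPM in the controls and 14.4, 16.8 and 18.3 TPM with stearate. Here too the groups did not overlap, and the rise was 0.37 ± 0.06 (limma adjusted p = 0.000329); after rescaling it was 0.32 and no longer reached the 25% needed for a call.

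Of the other members of this group that rose, DDIT4, the mTORC1 inhibitor, rose by 0.17 ± 0.03 (log2, SE; limma adjusted p = 0.000337), and TRIB3, a pseudokinase that feeds back on ATF4, by 0.11 ± 0.03 (limma adjusted p = 0.0156). DDIT4 still rose after rescaling (0.11), whereas TRIB3 did not pass (0.046, limma adjusted p = 0.269).

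In the opposite direction, NUPR1, a small stress-induced chromatin protein, was at 7.46, 10.7 and 16.0 TPM (lowest, median and highest) in the controls and 3.95, 4.72 and 9.33 TPM with stearate. The ranges overlapped, with 4 of 6 stearate samples below every control. The fall was the largest fold change in the set but also the most variable, at -0.88 ± 0.20 (log2, SE; 95% interval -1.31 to -0.45; limma adjusted p = 0.00567), with -0.94 after rescaling.

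STC2, stanniocalcin 2, a secreted glycoprotein, was at 87.5, 89.3 and 110 TPM in the controls and 66.0, 76.4 and 86.0 TPM with stearate, with no overlap. It fell by 0.27 ± 0.06 (log2, SE; limma adjusted p = 0.00502), and by 0.33 after rescaling, which brought it past the 25% threshold. It lay at -0.14 in the samples without CAY10566 alone (limma adjusted p = 0.15) and at -0.40 in those with it (limma adjusted p = 0.0687), so that neither arm passed by itself. In the latter arm the control CAY10566 replicate 3 stood at 110 TPM, against 88.9 and 87.5 TPM in replicates 1 and 2. Of the 5 members of this group that did not pass, VEGFA, the angiogenic factor, was nearest, at -0.15 (limma adjusted p = 0.0537), and it passed after rescaling (-0.21). CEBPB and CEBPG, the C/EBP partners of ATF4, the cytokine GDF15 and the repressor JDP2 lay between -0.019 and 0.080.

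**Figure D2:**
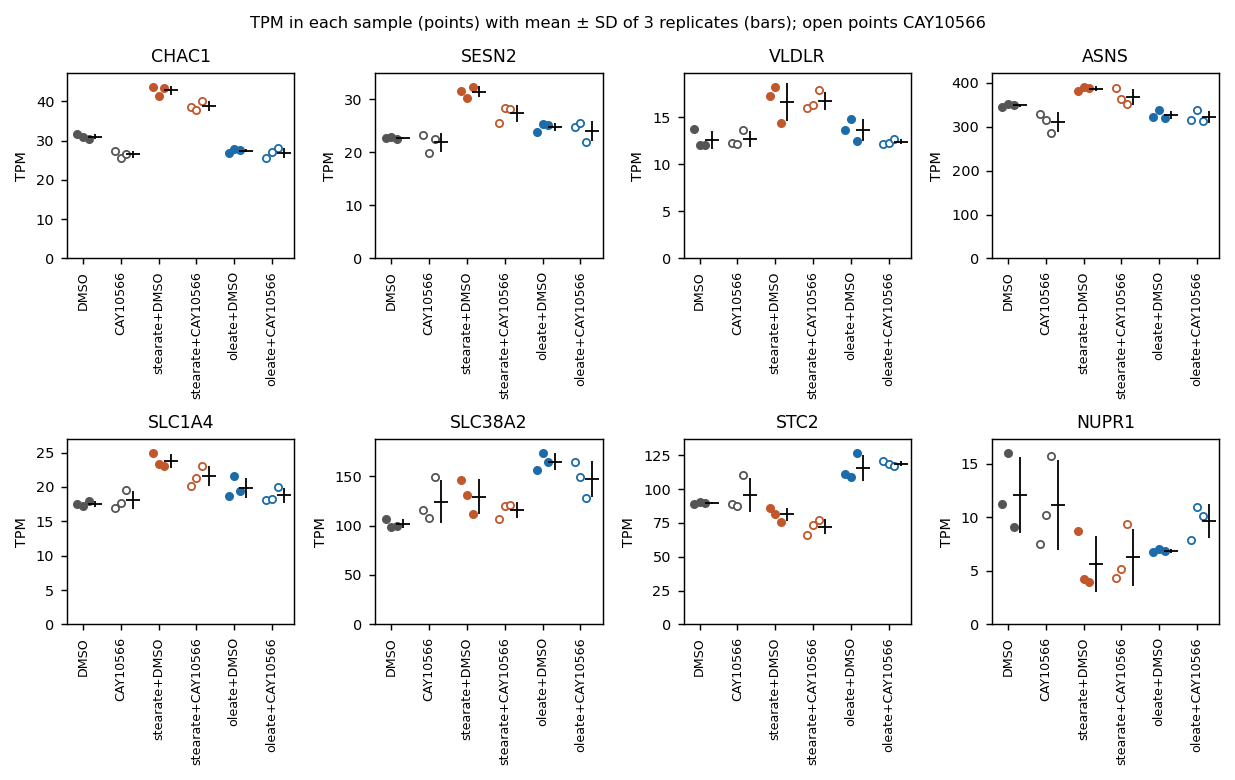
Each panel gives the TPM of a member in all 18 samples by condition (filled points without and open points with CAY10566), with the mean ± SD of 3 replicates in black and an axis from 0. CHAC1 lies between 37.8 and 43.7 TPM in the stearate samples and no higher than 31.6 TPM elsewhere, and STC2 lies between 109 and 127 TPM in the oleate samples.

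Among the genes of amino acid synthesis 3 of 12 rose and 1 fell, and none was called. ASNS was at 285, 337 and 351 TPM (lowest, median and highest) in the controls, 352, 384 and 391 TPM with stearate, and 314, 321 and 339 TPM with oleate. The stearate samples were all above the controls, by a narrow margin, and above the oleate samples. The rise of 0.20 ± 0.04 (log2, SE; limma adjusted p = 0.00415) became 0.14 after rescaling and no longer passed (limma adjusted p = 0.0792).

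PHGDH, the enzyme that opens serine synthesis, was at 171, 179 and 187 TPM in the controls and 196, 204 and 209 TPM with stearate, without overlap. It rose by 0.18 ± 0.04 (log2, SE; limma adjusted p = 0.00166) and still passed after rescaling (0.12, limma adjusted p = 0.0422). PSAT1, the next enzyme of the serine path, rose by 0.12 (limma adjusted p = 0.0229), a change that was lost after rescaling (0.059, limma adjusted p = 0.249) and on leaving out CAY10566 replicate 2 or any stearate+DMSO sample, with adjusted p up to 0.0576. PSPH, which finishes serine synthesis, did not pass (0.053).

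PYCR1, which makes proline, went the other way: it fell by 0.21 ± 0.05 (log2, SE; limma adjusted p = 0.00938), with every stearate sample below every control, and by 0.27 after rescaling. Neither arm of the inhibitor passed alone, with -0.12 without CAY10566 (limma adjusted p = 0.154) and -0.30 with it (limma adjusted p = 0.0923). In the latter arm the control CAY10566 replicate 3 stood at 245 TPM of PYCR1, against 208 and 200 TPM in replicates 1 and 2. The remaining 7 synthesis genes, namely the folate and serine enzymes SHMT2, MTHFD2 and ALDH1L2, the proline enzyme ALDH18A1, the alanine transaminase GPT2, and CTH and CBS of cysteine synthesis, lay between -0.081 and 0.13 and did not pass as deposited. Of these, MTHFD2 (-0.047) and CBS (-0.081) passed as lower after rescaling, at -0.11 (limma adjusted p = 0.0051) and -0.14 (limma adjusted p = 0.00556). RefSeq lists a near-identical second copy of CBS on chromosome 21, so reads may have been divided between the copies and the level of CBS is uncertain. As a group the synthesis genes had a median of 0.052 as deposited and -0.0056 after rescaling.

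All 8 transporters had values above 0 with stearate, with a median of 0.11 as deposited and 0.054 after rescaling, when 6 of 8 were above 0. Of these, 3 rose. SLC1A4, which carries alanine, serine and cysteine, was at 17.0, 17.6 and 19.6 TPM (lowest, median and highest) in the controls, 20.2, 23.0 and 24.95 TPM with stearate and 18.1, 19.1 and 21.5 TPM with oleate. The stearate samples did not overlap the controls, and the rise was 0.33 ± 0.05 (log2, SE; limma adjusted p = 0.000313); after rescaling it was 0.27, which still passed but lay under the 25% threshold.

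SLC3A2 was at 666, 680 and 722 TPM in the controls and 713, 735 and 769 TPM with stearate. The ranges overlapped slightly, and the rise of 0.10 ± 0.03 (limma adjusted p = 0.0123) did not pass after rescaling (0.043, limma adjusted p = 0.411). SLC7A1, the cationic amino acid transporter, rose by 0.19 (limma adjusted p = 0.0385) but passed in only 10 of the 18 fits that each left out 1 sample. The cystine transporter SLC7A11 was at 0.24 (limma adjusted p = 0.0677), or 0.32 without CAY10566 replicate 3 (limma adjusted p = 0.00323), and SLC38A2, SLC7A5, SLC1A5 and the glycine transporter SLC6A9 lay between 0.031 and 0.12. SLC7A5 has 2 pseudogenes in the table, SLC7A5P1 (3.51 TPM) and SLC7A5P2 (1.60 TPM), that could share its reads, both far below its own level.

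Over all samples none of the 10 genes of tRNA charging passed with stearate, by limma with FDR under 0.05, and the group's median was 0.029 as deposited and -0.031 after rescaling. AARS1, which loads alanine, was at 218, 226 and 244 TPM (lowest, median and highest) in the controls and 202, 217 and 227 TPM with stearate. The ranges overlapped, and the difference of -0.078 ± 0.04 (log2, SE) did not pass as deposited (limma adjusted p = 0.125) but did after rescaling (-0.14, limma adjusted p = 0.000661). NARS1, which loads asparagine, was at 79.3, 82.8 and 93.7 TPM in the controls and 80.9, 89.8 and 100 TPM with stearate, a difference of 0.099 ± 0.05 with a 95% interval of -0.0055 to 0.20. Without the control CAY10566 replicate 3, 2 of the 10 rose, where 20.3% of all genes did: NARS1 by 0.13 (limma adjusted p = 0.049) and IARS1 by 0.16 (limma adjusted p = 0.0246). The other 8, GARS1, WARS1, SARS1, MARS1, EPRS1, TARS1 and IARS1, which load other amino acids, and the tRNA exporter XPOT, lay between -0.014 and 0.11. At an unadjusted limma p under 0.05 the count was 1 of 10, AARS1, which also had the lowest two-sided exact permutation p of the group, 0.0498. The 3′ ends of MARS1 and DDIT3 overlap on opposite strands of chromosome 12, and since the strand setting of the counting is not given in the sources used here, reads of the overlap may not have been told apart.

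A list of 12 upstream and core genes of the pathway included eIF2α kinases, ATF4 and factors induced downstream of ATF4. Its counts are given as deposited only. Of the 12, 7 rose with stearate (58.3%, against 13.5% of all genes) and 11 lay above 0, with a median of 0.14. With oleate 4 rose (33.3%, against 23.0% of all genes) and 9 lay above 0, with a median of 0.12, and 6 were higher with stearate than with oleate (50%, against 6.85% of all genes). ATF4 was at 502, 534 and 543 TPM (lowest, median and highest) in the controls, 594, 605 and 619 TPM with stearate and 501, 517 and 539 TPM with oleate. Its stearate samples did not overlap either of the other groups, and the rise of 0.20 ± 0.02 (log2, SE; limma adjusted p = 7.64e-06) still passed after rescaling (0.14).

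DDIT3, which encodes the death-linked factor CHOP, was at 129, 137 and 153 TPM in the controls and 152, 155 and 167 TPM with stearate. It rose by 0.18 ± 0.04 (limma adjusted p = 0.00193), with 0.12 after rescaling (limma adjusted p = 0.0619). ATF3 and ATF5, transcription factors induced downstream of ATF4, were the 2 called genes of this list, at 0.36 and 0.43, with 0.30 and 0.37 after rescaling. Of the pathway's other genes, 10 further ATF4-linked targets held 1 that rose and 1 that fell, 8 other cytosolic tRNA synthetases held 0 in either direction (limma; 1 at an unadjusted p under 0.05), and 17 mitochondrial synthetases, which are not classical ATF4 targets, held 1 that fell. With oleate these 3 lists held 1 (10%), 2 (25%) and 6 (35.3%) genes that rose, where 23.0% of all genes did.

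**Figure D3:**
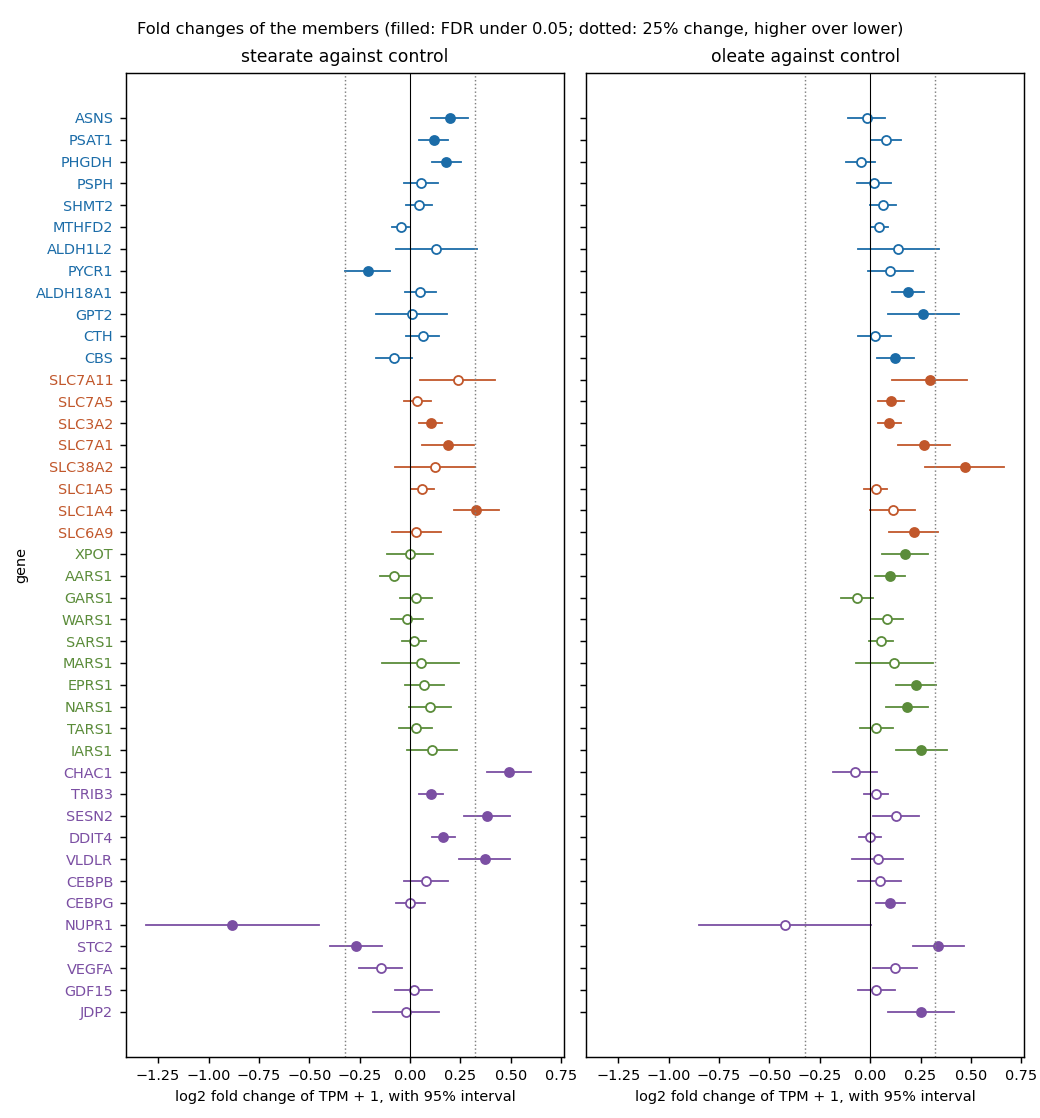
Points are log2 fold changes of TPM + 1 for the 42 members against control, stearate on the left and oleate on the right, with 95% intervals; filled points have an FDR under 0.05 and dotted lines mark the 25% threshold. With stearate the feedback block holds 5 filled points to the right of 0 and 2 to the left, and with oleate the 17 filled points are all to the right of 0, although SLC3A2 and AARS1 lie at or just below 0 after rescaling.

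Oleate served as the comparison fatty acid. In oleate against control 17 of 42 members rose (40.5%) and 0 fell (0 also at an unadjusted limma p under 0.05), where 23.0% of all genes rose and 2.70% fell. Only 2 members were called higher and 0 lower, against 6.46% and 0.435% of all genes. This one-sided count depended on the scale: after rescaling 5 members rose and 4 fell, where 9.07% of all genes rose and 9.12% fell, and the median member went from 0.10 (log2) to 0. Without CAY10566 replicate 3, 22 rose and 1 fell, where 30.1% of all genes rose and 4.11% fell. The 5 further rises were SHMT2 (0.082), PYCR1 (0.15), SLC1A4 (0.14), WARS1 (0.0999) and VEGFA (0.16), so that 5 of 12 synthesis genes rose in that fit, and GARS1 fell (-0.10). Without oleate+DMSO replicate 3, 9 rose (21.4%), where 17.0% of all genes did.

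Transport held the largest share, with 6 of 8 members higher as deposited and a median of 0.16, or 0.071 after rescaling. SLC38A2, the sodium-coupled neutral amino acid transporter SNAT2, was at 98.4, 107 and 149 TPM (lowest, median and highest) in the controls, 107, 120 and 146 TPM with stearate and 128, 160 and 173 TPM with oleate. The highest control sample, CAY10566 replicate 3, lay within the oleate range, and 5 of 6 oleate samples were above every control. The rise was 0.47 ± 0.09 (log2, SE; limma adjusted p = 0.00311), 0.37 after rescaling and 0.55 without that control.

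SLC7A1 (0.27) also rose after rescaling (0.17, limma adjusted p = 0.0147). SLC7A11 (0.30), SLC6A9 (0.22), SLC7A5 (0.10) and SLC3A2 (0.095) rose as deposited and did not pass after rescaling, when SLC3A2 stood at -0.0050. SLC1A4, called with stearate, was at 0.11 with oleate (limma adjusted p = 0.13).

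Of the feedback group, 3 of 12 rose, STC2, CEBPG and JDP2, and the median of 0.042 became -0.053 after rescaling. STC2 was at 109, 118 and 127 TPM (lowest, median and highest) with oleate, so that only the control CAY10566 replicate 3, at 110 TPM, reached into the oleate range. Its rise of 0.34 ± 0.06 (log2, SE; limma adjusted p = 0.00242) remained after rescaling (0.24, limma adjusted p = 0.00453), under the 25% threshold. CEBPG (0.10) and JDP2 (0.25) did not pass after rescaling, at 0.0029 (limma adjusted p = 0.962) and 0.16 (limma adjusted p = 0.101). CHAC1, at -0.075 (95% interval -0.18 to 0.035), did not pass as deposited and was lower after rescaling (-0.17, limma adjusted p = 0.0342), as were DDIT4, at -0.0006 as deposited and -0.10 after rescaling (limma adjusted p = 0.0129), ATF4, at -0.027 and -0.13 (limma adjusted p = 0.0129), and DDIT3, at -0.068 and -0.17 (limma adjusted p = 0.0126). SESN2, at 0.13, and VLDLR, at 0.038, did not pass. NUPR1 was at 6.72, 7.46 and 10.97 TPM with oleate, a difference of -0.42 whose 95% interval, -0.85 to 0.0059, reached 0.

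The tRNA charging group had 5 of 10 members higher with oleate and a median of 0.11, or 0.010 after rescaling. NARS1 was at 92.1, 94.2 and 104 TPM (lowest, median and highest), 0.18 ± 0.05 above control (log2, SE; limma adjusted p = 0.0137), a rise that did not pass after rescaling (0.083, limma adjusted p = 0.146). AARS1 was at 228, 243 and 258 TPM, 0.099 ± 0.04 above control (limma adjusted p = 0.0448), but at -0.0006 after rescaling. IARS1 (0.25) and EPRS1 (0.23), which load isoleucine and both glutamate and proline, rose on both scales, with 0.16 and 0.13 after rescaling, and XPOT (0.17) rose as deposited but did not pass after rescaling. GARS1, at -0.066, passed as lower after rescaling (-0.17, limma adjusted p = 0.0263). In the synthesis group ALDH18A1 (0.19), GPT2 (0.26) and CBS (0.13) rose as deposited and none of the 3 passed after rescaling. ASNS (-0.018) and PHGDH (-0.048), which rose with stearate, did not pass with oleate as deposited, and PHGDH was lower after rescaling (-0.15, limma adjusted p = 0.0175).

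Some of these rises rested on few samples. When each of the 18 samples was left out in turn, AARS1 passed in 7 fits, CBS in 9, GPT2, XPOT and CEBPG in 11 each, JDP2 in 15, and SLC7A5 and SLC7A11 in 16 each. Apart from SLC7A11, which was lost without DMSO replicate 2 or oleate+DMSO replicate 3, all of these were lost without oleate+DMSO replicate 2 and also without oleate+DMSO replicate 3. The other 9 members that rose with oleate, among them SLC38A2, STC2, NARS1, IARS1 and EPRS1, passed in all 18 fits.

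Stearate and oleate share the same control samples in the comparisons above, so the difference between them was tested directly. In stearate against oleate 7 members were higher and 13 lower, where 6.85% of all genes were higher and 14.3% lower, and 2 were called higher and 2 lower, against 1.60% and 4.78% of all genes. The all-gene median of -0.032 became 0.0039 after rescaling, and the counts of members became 8 and 10, where 10.4% of all genes were higher and 11.5% lower. Without CAY10566 replicate 3, which enters here through the shared estimate of the spread, 8 were higher and 15 lower, where 7.85% and 17.2% of all genes were, and GARS1 (0.096), IARS1 (-0.15) and CEBPG (-0.099) were the additions.

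Higher with stearate were CHAC1 (0.57 ± 0.05, log2, SE; limma adjusted p = 2.45e-07), VLDLR (0.33 ± 0.06), SESN2 (0.25 ± 0.05), PHGDH (0.23 ± 0.04), SLC1A4 (0.22 ± 0.05), ASNS (0.22 ± 0.04) and DDIT4 (0.17 ± 0.03), all 7 of which also passed after rescaling. TRIB3 (0.077) did not pass as deposited (limma adjusted p = 0.0625) but did after rescaling (0.12, limma adjusted p = 0.00506). CHAC1 and VLDLR were called. In the DMSO samples alone VLDLR did not pass (0.26, limma adjusted p = 0.133), whereas in the CAY10566 samples alone it did (0.40, limma adjusted p = 0.0211). For CHAC1, SESN2, PHGDH, ASNS and DDIT4 every stearate sample exceeded every oleate sample, with an exact permutation p of 0.00216, two-sided and the smallest that 6 against 6 allows. Any full separation gives this p, which is unadjusted and adds nothing to the separation itself. The share of all genes without overlap is not given, here or above. ATF4 (0.23) and DDIT3 (0.24) were higher with stearate too, without overlap.

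Lower with stearate than with oleate were STC2 (-0.61 ± 0.06, log2, SE; limma adjusted p = 7.86e-07) and SLC38A2 (-0.34 ± 0.09; limma adjusted p = 0.0136), both called. STC2 ranged from 66.0 to 86.0 TPM with stearate and from 109 to 127 TPM with oleate. The other 11 were PYCR1 (-0.31), JDP2 (-0.27), VEGFA (-0.27), GPT2 (-0.26), CBS (-0.21), SLC6A9 (-0.19), AARS1 (-0.18), XPOT (-0.17), EPRS1 (-0.16), ALDH18A1 (-0.14) and MTHFD2 (-0.092). NUPR1, at -0.46 ± 0.20, did not pass (limma adjusted p = 0.12), and its ranges overlapped. After rescaling SLC6A9 (-0.15, limma adjusted p = 0.0932), ALDH18A1 (-0.098, limma adjusted p = 0.056) and MTHFD2 (-0.051, limma adjusted p = 0.142) no longer passed, and SLC38A2 (-0.30) passed under the 25% threshold. In the fits that left out 1 sample, GPT2 and XPOT passed in 11 of 18, SLC6A9 and EPRS1 in 13, and the other 9 members that were lower in all. By group, synthesis had 2 higher and 5 lower, transport 1 and 2, tRNA charging 0 and 3, and feedback and signalling 4 and 3. Of the genes outside the set, the mitochondrial glutamate tRNA synthetase EARS2 was called lower with stearate (-0.33 ± 0.07; limma adjusted p = 0.00345), but lay under the 25% threshold after rescaling (-0.29).

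**Figure D4:**
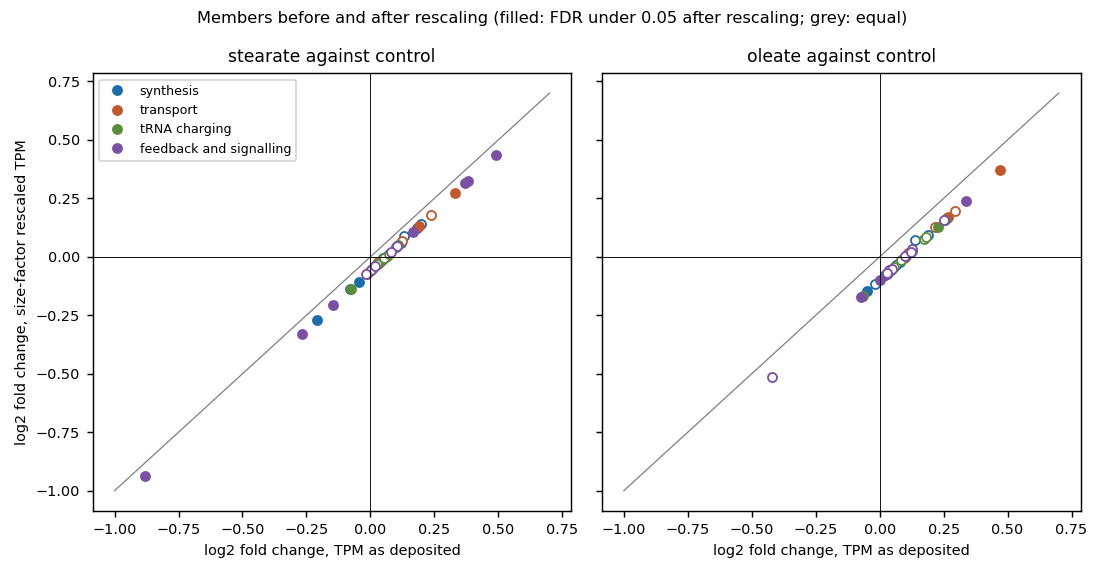
Each point is a member, with its log2 fold change against control as deposited on the horizontal axis and after median-of-ratios rescaling on the vertical axis; filled points pass (FDR under 0.05) after rescaling and the grey line marks equal values. All points lie below the line, and the farthest from 0 keep their direction: CHAC1 (0.49 and 0.43) and NUPR1 (-0.88 and -0.94) with stearate, and SLC38A2 (0.47 and 0.37) with oleate.

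The last comparison asked whether blocking desaturation with CAY10566 altered these genes. Over 9 against 9 samples, 0 of 42 members passed in limma with the fatty acid as a covariate, as did 0 of all genes (0%). Some leaned lower without passing: 8 members had an unadjusted p under 0.05 (19%), against 5.42% of all genes, and the lowest adjusted p was 0.653, for CHAC1. CHAC1 differed by -0.13 (95% interval -0.19 to -0.061), JDP2 by -0.16, SESN2 by -0.096 and ASNS by -0.088. With CAY10566, mean CHAC1 was 26.6 ± 0.905 TPM against 31.0 ± 0.630 TPM without fatty acid (SD, n = 3 each), and 38.8 ± 1.21 against 42.8 ± 1.21 TPM with stearate.

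Within the fatty acid groups, 0 members passed without fatty acid, where 0% of all genes did, 0 with stearate, where 0.0145% did, and 0 with oleate, where 0% did. At an unadjusted p under 0.05 the counts of members were 4, 9 and 2 of 42, against 10.1%, 5.52% and 4.72% of all genes. ATF4 was at 613 ± 6.62 TPM with stearate+DMSO and 599 ± 5.31 TPM with stearate+CAY10566 (SD, n = 3).

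Nor did the stearate difference of any member depend on the inhibitor by the interaction test, in which 0.00725% of all genes passed, or the oleate difference, in which 0% did. At an unadjusted p under 0.05 there were 5 and 8 of 42 members, against 9.36% and 10.3% of all genes. CEBPB had the lowest adjusted p among the members for stearate (0.452), and for oleate it shared the lowest, 0.449, with CHAC1, SLC38A2, SLC7A11 and WARS1. CEBPB averaged 59.6 TPM with DMSO and 64.3 TPM with CAY10566, but 69.2 TPM with stearate+DMSO and 62.1 TPM with stearate+CAY10566. For SLC38A2 the stearate interaction was -0.42 with a 95% interval of -0.77 to -0.075 (limma adjusted p = 0.512) and the oleate interaction was -0.44 with a 95% interval of -0.78 to -0.092 (limma adjusted p = 0.449); both values include CAY10566 replicate 3. The oleate difference of SLC38A2 was 0.69 in the samples without CAY10566 (limma adjusted p = 0.00351) and 0.25 in those with it (limma adjusted p = 0.529). The intervals in 3 against 3 samples were wide, so these results do not show that the members act alike with and without the inhibitor.

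Each arm of the inhibitor was also fitted alone, with 3 samples a group. In the DMSO samples alone stearate gave 13 members higher and 1 lower, where 12% of all genes were higher and 3.69% lower. Members that passed there but not over both arms were SLC7A11 (0.44), SLC38A2 (0.33), SLC1A5 (0.089) and CEBPB (0.21). Oleate gave 15 higher and 3 lower in the DMSO samples, where 22.4% and 3.73% of all genes passed, and the 3 were ASNS (-0.092), PHGDH (-0.11) and CHAC1 (-0.17).

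In the CAY10566 samples alone few genes of any kind passed, 0.529% higher and 1.24% lower with stearate and 0% and 0.029% with oleate. Stearate gave 2 members higher, CHAC1 (0.53, limma adjusted p = 0.00326) and VLDLR (0.37, limma adjusted p = 0.0438), and oleate 0 (limma; 4 higher and 0 lower at an unadjusted p under 0.05). Some stearate differences were as large in this arm without passing: ASNS was at 0.25 (limma adjusted p = 0.0842) and PHGDH at 0.21 (limma adjusted p = 0.113), against 0.15 for both in the DMSO samples. The controls of this arm include CAY10566 replicate 3. Its ASNS, at 285 TPM, was the lowest of the 18 samples, against 329 and 316 TPM in replicates 1 and 2. Its PHGDH, at 173 TPM, lay between those replicates. SESN2 was at 0.31 with CAY10566 and 0.45 without, SLC1A4 at 0.24 and 0.42, and NUPR1 at -0.75 and -1.02.

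Of 5 epithelial markers, 3 fell with stearate beside these changes: KRT18 by 0.44 (log2; limma adjusted p = 6.7e-07), KRT19 by 0.29 (limma adjusted p = 0.0002) and KRT8 by 0.24 (limma adjusted p = 2.12e-05). EPCAM (-0.047) and CDH1 (-0.11) did not pass. With oleate KRT18 (-0.16) and KRT19 (-0.13) fell, and KRT8 (-0.081), EPCAM (-0.0019) and CDH1 (0.18) did not pass. KRT8 and KRT18 overlap on opposite strands of chromosome 12. The part of these markers in the members' changes was not tested.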

How the data were processed

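RNA of 18 OVCAR5 samples was prepared as stranded mRNA libraries and sequenced in paired ends by the authors, who trimmed the reads with Trim Galore, aligned them with STAR 2.7.1a to GRCh38 and estimated expression with RSEM. The authors deposited TPM per gene, scaled to a sum between 999999.1 and 1000000.5 in every sample. TPM keeps no read counts, so depth is unknown and precision rests on the spread between replicates. Cultures were treated in triplicate. The paper reports at least 3 independent experiments for its in vitro work in general. It does not say whether the 3 RNA samples of a condition were independent cultures. The p-values therefore measure the spread between these samples, which may be technical.

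From the table, 1 line naming no gene was left out, and symbols were found for 56321 identifiers (93.1%). Coordinates came from GENCODE 44. Values were tested with limma 3.58.1 in R 4.3.3 (lmFit and eBayes with trend) on log2-transformed TPM with a pseudocount of 1, in genes averaging 1 TPM or more, with Benjamini-Hochberg adjustment over all genes tested. Fatty acid comparisons used 3 groups of 6 samples. CAY10566 was tested with the fatty acid as a covariate, and within groups and as an interaction in a model of 6 conditions. Exact permutation tests were two-sided. The procedure was tested on simulated data.

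The members and lists were chosen with earlier results of these data known. Members given in full were those called in any fatty acid comparison, plus the 2 of each group with the largest absolute moderated statistic for stearate against control, with ATF4 and DDIT3 added as the regulator and its partner; of the other lists only called genes are named. The remaining members and the marker genes are given by value only. Alternatives were a pseudocount of 0.1, no filter or a minimum of 5 TPM, no trend, CAY10566 as a covariate, size-factor rescaling, a replicate block, each arm alone, and each sample left out. Removal of trends on transcript length and GC content, by splines with 3 degrees of freedom, was chosen after seeing the data.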

Additional observations from a re-analysis of the deposited data

Results flagged for a closer look

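For the 12 members given in full, the lowest and highest sample was compared with the nearest other in each of the 3 fatty acid groups of 6, in all 36 groups. In 5 of them a sample lay far from the rest, by Dixon's criterion, which chance meets in about 1 of 20 groups. CAY10566 replicate 3 was the high sample in 3 of the 5. It had 148.72 TPM of SLC38A2, where the next control had 115.67, and 110.19 TPM of STC2, where the next had 90.48. It also had 19.6 TPM of SLC1A4, where the next had 17.93. Its size factor of 1.022 was the highest among the controls, and whether that accounts for these values was not tested. CAY10566 replicate 2 was the low sample for SESN2, with 19.92 TPM against 22.42 in the next. Among the oleate samples, oleate+DMSO replicate 2 was high for NARS1, with 104.02 TPM against 95.15 in the next.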

How the results depend on the processing

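Members that passed in stearate against control numbered 11 higher and 3 lower, with 4 called higher and 1 lower. Rescaling by size factors gave 7 and 7, with 2 called in each direction (2% and 2.68% of all genes). The CAY10566 samples alone gave 2 and 0, with 2 and 0 called, and the DMSO samples alone 13 and 1. Removing length and GC trends gave 15 and 5 with the sample mean kept (13% and 5.16% of all genes) and 10 and 8 with it removed (7.58% and 10.1% of all genes), with 2 called higher in both and, in the latter, 2 lower.

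For oleate against control, 17 rose, 0 fell and 2 were called higher. No filter on TPM gave 10 higher, in a fit over more genes whose all-gene share is not given here. Rescaling gave 5 and 4, with 1 called higher (2.28% of all genes). The DMSO samples alone gave 15 and 3, with 8 called (19%, against 13.7% of all genes), and the CAY10566 samples alone 0 and 0, with 0 called. Removing trends gave 17 and 1 (22.1% and 1.89% of all genes), with 1 called, or 2 and 5 (5.44% and 6.22% of all genes), with 0 called, when the mean was removed as well. The direction turned for SLC3A2 (-0.0050) and AARS1 (-0.0006) after rescaling, and for SLC7A5 (-0.0174), XPOT (-0.0081), AARS1 (-0.0613) and CEBPG (-0.0155) after removal of trends and mean. In these settings the median of all genes moved towards 0 by construction.

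For stearate against oleate, 7 were higher and 13 lower, with 2 called in each direction. The DMSO samples alone gave 6 lower (6.85% of all genes), with 4 called lower (3.92% of all genes), and the CAY10566 samples alone 3 higher and 1 lower (0.827% and 2.86% of all genes), with 1 called lower. Rescaling left 1 called lower (3.65% of all genes).

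Leaving out each sample in turn moved the members higher with oleate between 9 (without oleate+DMSO replicate 3) and 22 (without CAY10566 replicate 3), with 10 without oleate+DMSO replicate 2 and 11 without DMSO replicate 2 or CAY10566 replicate 2; those lower ranged from 0 to 1 and those called higher from 1 to 4. Of all genes, 17% rose in the fit with 9 and 30.1% in the fit with 22, and the shares in the other fits are not given. In stearate against oleate the called members ranged from 1 to 2 higher and from 1 to 3 lower. VLDLR dropped under the 25% threshold without stearate+DMSO replicate 2, stearate+CAY10566 replicate 3, or oleate+CAY10566 replicate 1 or 2, and SLC38A2 without stearate+DMSO replicate 3, stearate+CAY10566 replicate 1 or oleate+DMSO replicate 2. In stearate against control the members higher ranged from 9 to 14 and those called higher from 3 to 4, since SLC1A4 dropped under the 25% threshold without DMSO replicate 2, CAY10566 replicate 1, or stearate+DMSO replicate 1 or 2.

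Same-numbered samples of different conditions had correlations of their deviations between -0.18 and 0.103 (45 pairs). The median was 0.012, against -0.0109 for different numbers. No shared effect of the number was seen, which does not show that same-numbered samples were handled apart. With the number as a replicate block, 10 members rose and 3 fell with stearate, where 12.4% and 5.72% of all genes did. With oleate 16 rose in that fit, where 21.6% of all genes did. In stearate against oleate 7 were higher and 13 lower, where 6.44% and 13.7% of all genes were. Under every setting run for it, CAY10566 gave 0 members in each of its tests. Length and GC were known for all 42 members. Depth is unknown, so counting error could not be given.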
